A study of Mus musculus with 6 samples.

Results

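The genes of the cytosolic ribosomal proteins were read out of a table of RNA sequencing counts from mouse fibro-adipogenic progenitors (FAPs), stromal cells of the muscle interstitium that can give rise to fibroblasts and fat cells. Members were the rows whose symbol starts with Rpl or Rps followed by a digit, together with Rplp0, Rplp1, Rplp2 and Rpsa. The Rps6k kinases (10 rows) and the rows with a pseudogene symbol (23 rows) were left out. This gave 89 of 16671 genes. Of these, 77 were core genes, which code for the standard proteins of the ribosome (31 of the small, 40S, subunit and 46 of the large, 60S, subunit), and 11 were paralogues, additional genes whose products resemble a core protein. The remaining member, Rps19bp1, carries a matching symbol but codes for a protein that binds Rps19 and is no part of the ribosome, so it was kept apart. Fau, which codes for a ribosomal protein fused to a ubiquitin-like protein, lies outside the rule by its name and is given with the related mRNAs.

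Ribosomal proteins assemble with ribosomal RNA in the nucleolus, and the cell makes them in matched amounts because an unpaired ribosomal protein is usually degraded. Their mRNAs are short and abundant, and most begin with a cytosine followed by a run of pyrimidines, the 5′ terminal oligopyrimidine (TOP) motif. Through this motif the kinase complex mTORC1 and the RNA-binding protein Larp1 control whether these mRNAs are translated or stored. The level of a ribosomal protein mRNA is therefore a measure of the transcript only, and not of ribosome number or of protein synthesis.

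The study compared 2 groups of 3 libraries each. All cells were FAPs sorted by flow cytometry from the hind limb muscles of wild type mice aged 4 to 5 months. The control group received vehicle, and the C1q group received C1q, the complement protein that recognises immune complexes, at 100 µg/ml. The duration of treatment was not given in the sources used here, and neither was it stated whether libraries came from separate mice or cultures, so a p-value here measures the spread among these 6 libraries alone, and that spread may be technical. The text on RNA extraction speaks of MuSCs, whereas the growth text and the cell type label speak of FAPs. Of the FAP markers, 10 of 10 were measured, with a summed normalised read count of 424969 to 548990 in the control libraries and 752060 to 937547 in the C1q libraries, and 7 were called higher. The 10 markers of the muscle lineage summed to 26739 to 88964 in the control libraries and 16148 to 25254 in the C1q libraries, and 6 of them were called lower. Over all 16671 genes, 18.7% were called lower and 19.7% higher in the same test, which is described below. Pax7, which defines muscle stem cells, had a mean below 5. Of 6 macrophage markers, 5 were in the table with sums of 93.5 to 107 against 50.1 to 133, and Adgre1, C1qa and C1qb had means below 5. Markers of tenocytes summed to 2927 to 8638 in the controls and 17767 to 30636 with C1q (2 of 4 higher, 1 lower), those of mural cells to 1025 to 1451 and 1797 to 2390 (2 of 4 higher) and those of Schwann cells to 76.5 to 133 and 199 to 223 (2 of 4 higher). The sums of endothelial markers (608 to 1287 against 572 to 1274) and of adipocyte markers (952 to 4150 against 1502 to 4907) overlapped. The part of these differences in the results below was not tested.

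The libraries held 38861152, 29325341 and 5379209 reads on genes in controls 1, 2 and 3, and 31929119, 24046020 and 29818424 in C1q 1, 2 and 3. Values are normalised read counts, that is the reads on a gene after division by the library's size factor. Control 3 was the shallowest library, and 1 of its reads was worth 4.25 units of the normalised count, against 0.583 to 0.975 in the other libraries. Apart from Rpl39, every core gene still had at least 722 reads in control 3, so counting error is small for the core genes, and the number of libraries limits the precision.

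The start regions of several members are shown first, since the pyrimidine run at the start is the feature by which these mRNAs are known. Each line gives 15 bases before the annotated start of transcription followed by the first 15 transcribed bases, 5′ to 3′ on the strand of the gene, from RefSeq with assembly GRCm38.p6. Capitals mark the longest unbroken run of C and T in the window. The lines give Rpl38 (chr11:114668565-114668594, + strand), Rplp2 (chr7:141447636-141447665, + strand) and Rpl35 (chr2:39005117-39005146, − strand) as core genes with the motif at the annotated start. They go on with Rps28 (chr17:33824548-33824577, − strand), Rps4x (chrX:102189377-102189406, − strand) and Rps3a1 (chr3:86142654-86142683, − strand) as core genes without it. The last are the paralogues Rpl36al (chr12:69184053-69184082, − strand) and Rpl32l (chr10:20208424-20208453, + strand).
Rpl38: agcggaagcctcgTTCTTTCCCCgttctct
Rplp2: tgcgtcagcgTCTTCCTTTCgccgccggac
Rpl35: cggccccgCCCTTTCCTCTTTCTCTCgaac
Rps28: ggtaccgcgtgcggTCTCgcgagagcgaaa
Rps4x: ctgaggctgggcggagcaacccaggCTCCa
Rps3a1: TTaaagccggaagggcgaaagagcaagggt
Rpl36al: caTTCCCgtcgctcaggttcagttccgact
Rpl32l: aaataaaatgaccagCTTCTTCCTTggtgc

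In Rpl38, Rplp2 and Rpl35 the run spans the annotated start, with lengths of 10, 10 and 18 bases. In Rps28 it covers 4 bases, and in Rps3a1 the longest run is 2 bases long and lies at the far upstream end of the window. A promoter entry was found for 67 of the 89 members, and 9 of them had several entries. A core gene with several entries, such as Rps21 or Rpl35a, was counted with the strict motif when any entry had it. A C at the annotated start followed by at least 4 further pyrimidines was present in 13 of 57 core genes (22.8%) and in 384 of 12371 genes of the table with an entry (3.10%). The looser feature, a run of at least 8 pyrimidines anywhere within 25 bases on either side of the start on the strand of the gene, was present in 30 of 57 core genes (52.6%) and in 23.0% of all genes. These are matches of letters in a fixed window, and annotated starts can be off by several bases. For Rpl38 the start used lies inside the gene interval given below, downstream of its first base.

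With C1q the core genes fell together. Of 77 core genes, 73 were called lower and 0 higher (limma-trend on log2(value + 1), Benjamini-Hochberg adjusted p below 0.05 over all genes), while 18.7% of all 16671 genes were called lower and 19.7% higher. The median log2 fold change of the core genes was −0.72, that is 1.64-fold lower, against 0.03 over all genes. All 77 point estimates were negative, and the one closest to 0 was that of Rps3a1 at −0.18. On the reads recovered from the table, edgeR and DESeq2 each called 73 core genes lower and 0 higher, where they called 25.1% and 20.4% of all genes tested lower. In 76 of 77 core genes every C1q library lay below every control library. Over all genes the groups were apart in this way for 25.4% in the lower and 26.8% in the higher direction. Among the 685 genes outside the family with a mean of at least 5000, 29.8% were called lower and 29.6% higher, and the median was −0.01. In a bulk sample, fewer cells of a type and less RNA per cell cannot be told apart.

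**Figure D1:**
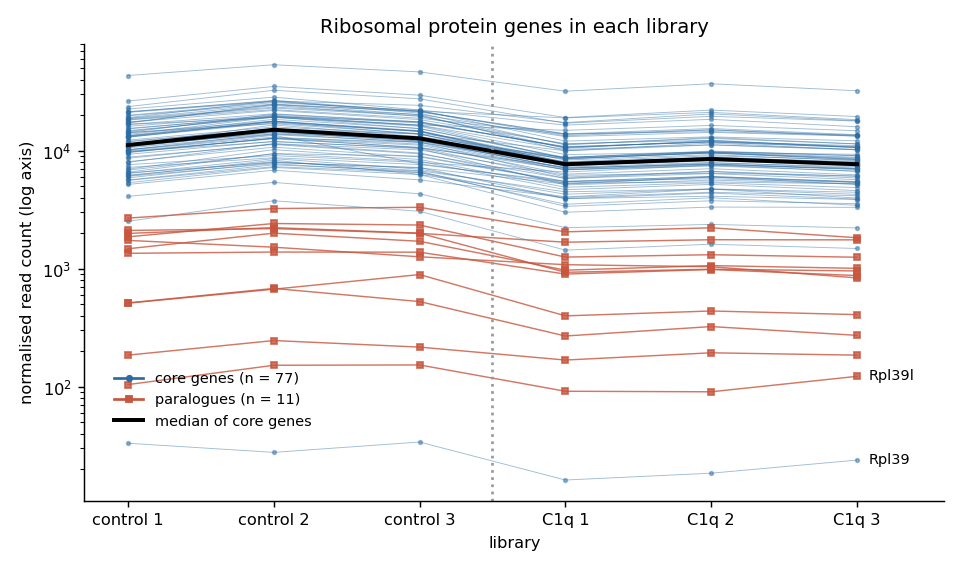
Normalised read count (log axis) of each of the 77 core genes (blue) and 11 paralogues (red) in the 3 control and 3 C1q libraries, with the median of the core genes in black. Lines join the values of a gene and carry no order; the core median lies between 11181 and 15054 in the controls and between 7687 and 8517 with C1q, and Rpl39 lies far below every other core gene.

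The core genes held 4.28%, 5.57% and 4.65% of all normalised counts in controls 1, 2 and 3 (4.83 ± 0.67%, mean ± SD, n = 3) and 2.93%, 3.14% and 2.97% in C1q 1, 2 and 3 (3.01 ± 0.11%, n = 3). All C1q libraries lay below all control libraries, with a difference of −1.82 percentage points. The controls spread more widely than the C1q libraries. Within the groups the core genes moved as a block: control 2 was the highest control for 76 of 77 core genes, control 1 the lowest for 72, and C1q 2 the highest C1q library for 76. A single component held 91.0% of the within-group variance of the core genes. The correlation of each core gene with the mean of the other core genes over the 6 libraries had a median of 0.996 and was above 0.9 for 74 of 77. These correlations contain the difference between the groups and describe libraries that share depth and scaling.

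Both subunits were lower. In the small subunit 29 of 31 core genes were lower with a median of −0.74, and in the large subunit 44 of 46 with a median of −0.70. Rpl38, a large-subunit protein known for its effect on the translation of Hox mRNAs in the embryo (Entrez gene 67671, chr11:114667818-114672333 in GRCm38.p6), had 4103, 5387 and 4315 against 2227, 2374 and 2218. It fell by 1.01 on the log2 scale, with an SE of 0.11 and a limma adjusted p of 0.000494, and the means were 4602 ± 689 and 2273 ± 87.6 (SD, n = 3). Every C1q value of Rpl38 was well under the lowest control.

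Rps28, Rpl21 and Rps19 were also among the core genes with the most negative fold changes. Rps28, which sits at the mRNA exit of the small subunit, stood at 9321, 12022 and 10428 in the controls and 5128, 5636 and 5250 with C1q (−0.98 ± 0.10, limma adjusted p 0.000483). Rpl21 fell by 0.96, and Rps19, the gene most often mutated in the inherited anaemia named after Diamond and Blackfan, also fell by 0.96. Control 2 was the highest library for each of these genes, and the C1q libraries lay within a narrow band below the controls. Exons of Rps28 overlap those of Kank3 on the other strand in GENCODE, and the strand setting of the counting was not given in the sources used here, so reads of the 2 genes cannot be told apart. An overlap on the other strand was found for 18 of the 87 members in that annotation. For 28 of the 87 an exon overlapped another gene on the same strand, often a snoRNA gene, which no strand setting separates. Ribosomal protein genes also have many near-identical pseudogene copies, and how the counting treated reads that fit several places is not known, which makes single values uncertain.

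The P stalk, the flexible arm of the large subunit that recruits elongation factors, is made of Rplp0, Rplp1 and Rplp2. All 3 were lower, with a median of −0.61. Rplp0 had the highest level per length of all core genes, at 56003 normalised counts per kilobase of median transcript length in controls and 39461 with C1q. Its counts were 43395, 53530 and 46554 in the controls and 31930, 36952 and 32217 with C1q, a log2 fold change of −0.50 ± 0.13 with a limma adjusted p of 0.0164. The call on Rplp0 was lost without C1q 1 (adjusted p 0.0715) or without C1q 3 (0.0663). Rplp1, with 55917 per kilobase in controls, had a log2 fold change of −0.61, and Rplp2 one of −0.85. The next level per length was that of Rps24, with 42897 per kilobase in controls and 23690 with C1q, and a log2 fold change of −0.85.

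Several further core genes have a second role in the cell. Rpsa, which also serves as a laminin receptor, fell by 0.58, and Rps6, the protein phosphorylated by the S6 kinases, had 14237, 16928 and 13969 in the controls and 9993, 11193 and 10181 with C1q (−0.52, limma adjusted p 0.00531). Rps27a, which is made as a fusion with ubiquitin, had 10176, 13509 and 7762 against 5310, 5439 and 5244. It fell by 0.94, and control 3 was its lowest control, unlike most core genes, where that was control 1. Exons of Rps27a overlap those of Clhc1 on the other strand. Rpl41, which codes for the smallest protein of the ribosome, fell by 0.89. Rpl22, at 3838 per kilobase in controls, had the second lowest level per length and a log2 fold change of −0.47.

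**Figure D2:**
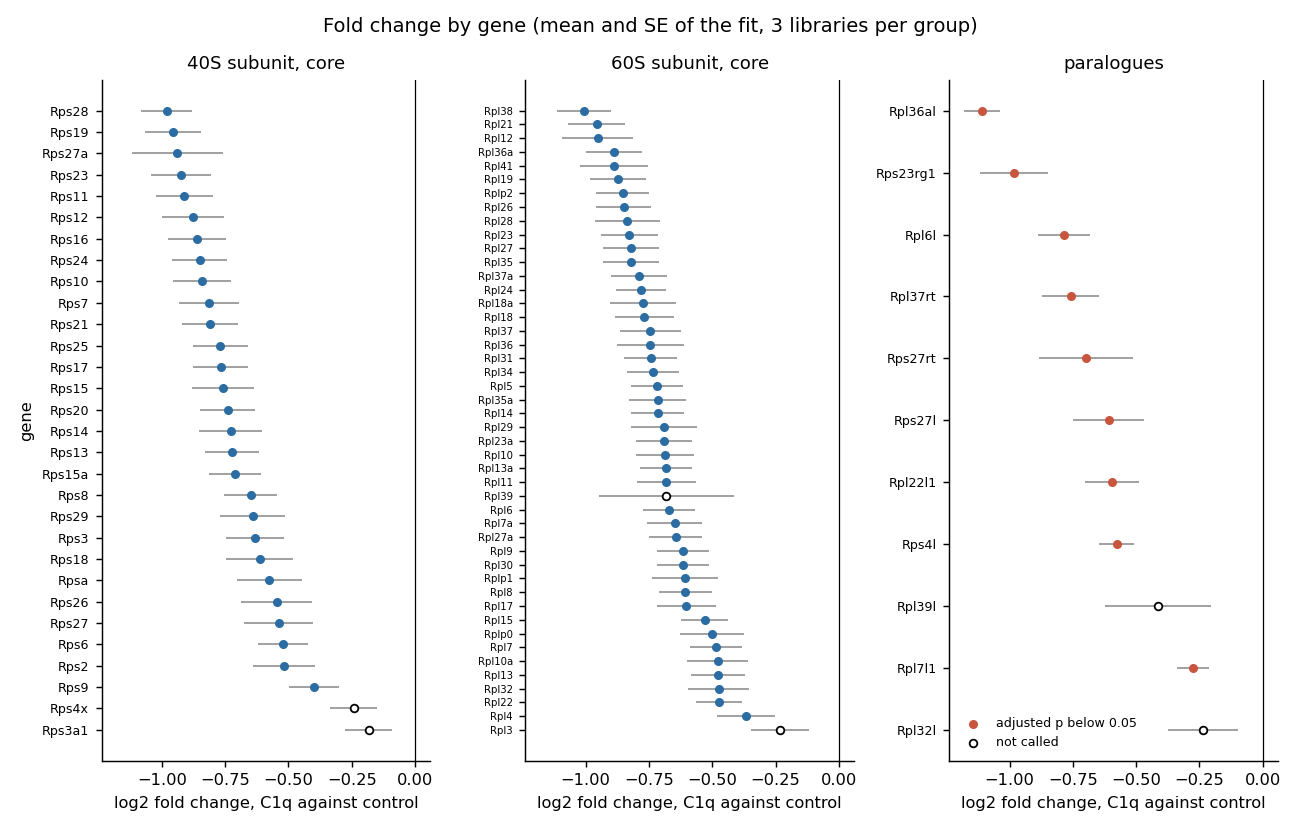
Log2 fold change of C1q against control (horizontal axis, point and SE of the fit on 3 libraries per group) for core genes of the 40S and 60S subunits and the paralogues (vertical axis). Filled points have an adjusted p below 0.05; all points lie left of 0, from −1.11 for Rpl36al to −0.18 for Rps3a1, and open points mark the 4 core genes and 2 paralogues that were not called.

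Rpl39, Rps4x, Rpl3 and Rps3a1 were the 4 core genes that were not called. Rpl39, which lines the exit tunnel of the ribosome, had only 57, 36 and 8 reads in the controls and 23, 19 and 32 with C1q, or normalised counts of 33.2, 27.8 and 34.0 against 16.2, 18.5 and 23.9. All its C1q values were below its controls, and its fold change of −0.68 (limma adjusted p 0.0800) was close to the core median. Its SE of 0.27 was the largest of the core genes. Every other core gene had a value of at least 1438 in every library. Per length Rpl39 stood at 51.8 in controls, the lowest of all core genes. Why so few reads were assigned to it was not tested.

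The other genes that were not called were abundant, with small fold changes. Rps3a1, a small-subunit protein (chr3:86137940-86142668), had 16710, 19132 and 16537 in the controls and 14890, 16393 and 14775 with C1q, giving −0.18 ± 0.09 (SE) with a limma adjusted p of 0.164. Rps4x, the X-linked small-subunit gene (chrX:102184941-102189391), had 7616, 9096 and 7962 against 6599, 7548 and 6684, giving −0.24 ± 0.09 with an adjusted p of 0.0774 in limma and of 0.0269 with the replicate number as a block. In both genes every C1q library was still under every control. Rpl3, a protein that reaches the peptidyl transferase centre, was the exception among the 77: its values of 21122, 26053 and 21651 overlapped those with C1q of 18970, 21141 and 18327. Rpl4 and Rps9 came next, at −0.37 (limma adjusted p 0.0370) and −0.40 (0.0154). The call on Rpl4 was lost without control 2, control 3, C1q 1 or C1q 3, and that on Rps9 without C1q 1 or C1q 3.

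Whether single members departed from the common shift was examined by fitting all genes relative to the mean of the core genes in each library, an alternative chosen after the data had been seen. In this fit 57.3% of all genes were called higher and 1.25% lower, since the core mean itself was lower with C1q. Of the 77 core genes, 4 were higher and 0 lower. Rps3a1 lay 0.52 above the common shift (limma adjusted p 0.00530), Rpl3 0.47 above it (0.00906), Rps4x 0.46 (0.00835) and Rpl4 0.33 (0.0474). These are the same 4 genes that had the least negative fold changes, so the result restates that order with an error. The calls on Rps3a1, Rpl3 and Rps4x held without each of the 6 libraries, with adjusted p up to 0.0492, and that on Rpl4 was lost without control 3 or any C1q library. Relative to the core mean Rps3a1 lay at 0.66, 0.47 and 0.50 (log2) in the controls and at 1.07, 1.06 and 1.05 with C1q.

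**Figure D3:**
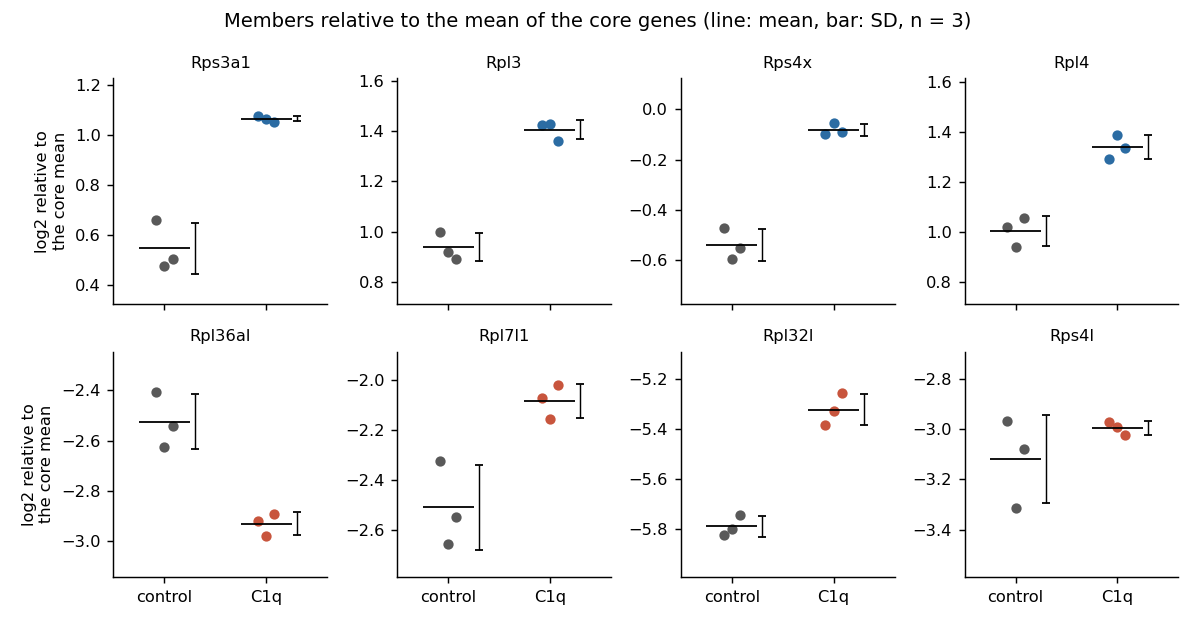
Log2 value of 4 core genes (upper row) and 4 paralogues (lower row) relative to the mean of the core genes in the same library (vertical axis, own range in each panel), for 3 control and 3 C1q libraries, with the mean (line) and SD (bar). Rps3a1, Rpl3, Rps4x, Rpl4, Rpl7l1 and Rpl32l lie higher relative to the core in every C1q library. Rpl36al lies lower, and the groups of Rps4l overlap.

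Most paralogues were lower too. Of 11 paralogues, 9 were lower and 0 higher, with a median of −0.61 and a range from −1.11 to −0.24, where 18.7% of all genes were lower and 19.7% higher. Rpl36al, a copy of Rpl36a (Entrez gene 66483, chr12:69182734-69184067), fell furthest of all members. It had 1992, 2232 and 2002 in the controls and 933, 991 and 958 with C1q, that is 2.16-fold lower (−1.11 ± 0.07, limma adjusted p 0.000169). Relative to the core mean it was 0.41 lower on the log2 scale (limma adjusted p 0.0226). That call was lost without control 3 or any C1q library, with adjusted p up to 0.0929. In the same fit 2 paralogues were higher, where 57.3% of all genes were higher and 1.25% lower. Rpl7l1 lay 0.43 above the core mean (limma adjusted p 0.0213) and Rpl32l 0.47 above it (0.0390). The call on Rpl7l1 was lost without control 3, C1q 1 or C1q 3, and that on Rpl32l without control 3 or any C1q library. Exons of Rpl36al overlap those of Gm49383, a protein-coding gene on the same strand, so reads of both genes may not be separable.

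The remaining paralogues that were called lower ran from Rps23rg1, a retrogene related to Rps23, at −0.98, over Rpl6l at −0.78, Rpl37rt at −0.76, Rps27rt at −0.70, Rps27l at −0.61 and Rpl22l1 at −0.59, to Rps4l at −0.58 and Rpl7l1 at −0.28. Rps27l, a target of p53, had 1738, 1523 and 1263 against 1082, 1040 and 837. It was lowest in the third library of each group, and its groups did not overlap. Rps4l had the tightest controls of the paralogues, at 1351, 1385 and 1382, against 901, 985 and 876. Calls were less stable for Rps27rt, which lost it without control 2, C1q 1 or C1q 3, and for Rpl7l1, which lost it without C1q 1. The 2 paralogues not called, Rpl39l and Rpl32l, were the rarest, and their groups overlapped. Rpl39l, known from male germ cells, had 104, 152 and 153 against 91.6, 90.6 and 123, and Rpl32l had 185, 246 and 217 against 168, 194 and 185.

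The balance between a paralogue and its core gene was read as the share of the paralogue in the sum of the pair. Rps4l made up 15.1%, 13.2% and 14.8% of the pair with Rps4x in the controls and 12.0%, 11.5% and 11.6% with C1q. Rpl36al made up 23.9 ± 1.9% of the pair with Rpl36a in the controls and 21.2 ± 0.4% with C1q (SD, n = 3). In the opposite direction, Rpl7l1 made up 9.63 ± 0.73% and then 10.96 ± 0.51% of the pair with Rpl7, and Rpl32l 1.67 ± 0.04% and then 1.97 ± 0.09% of the pair with Rpl32. The groups were apart for these 4 of 11 pairs. In an exact two-sided permutation test each gave p = 0.1, the smallest that 3 against 3 libraries allow, and 0.275 after adjustment over the 11 pairs, so this test could not pass 0.05 whatever the shares. The share of Rpl22l1 in the pair with Rpl22 was 28.2 ± 1.8% and 26.5 ± 1.1%, with overlapping groups. The shares are of reads and not of molecules, as the lengths within a pair differ. Where a paralogue and its core gene are alike in sequence, their reads may not be separable, since the treatment of reads that fit several places is not known.

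Transcript length changed how these falls compare with other genes. The longest protein-coding transcript had a median length of 937 bases for the core genes and 3081 bases for all genes. Among the 14846 other genes with a length, the fold change grew with length, with a Spearman correlation across genes of 0.40, given as a description since genes are not independent replicates. Other genes with transcripts of 500 to 750 bases had a median of −0.56 and 48.2% of them were lower. Among those of that length with a mean of at least 100, the median was −0.71 and 82.7% were lower. Genes above 5000 bases had a median of 0.38 and 47.6% were higher. The medians of the core genes changed less with length. They were −0.77 up to 500 bases, −0.78 from 500 to 750, −0.69 from 750 to 1000, −0.71 from 1000 to 1500, −0.60 from 1500 to 2000 and −0.67 from 2000 to 3000 bases.

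**Figure D4:**
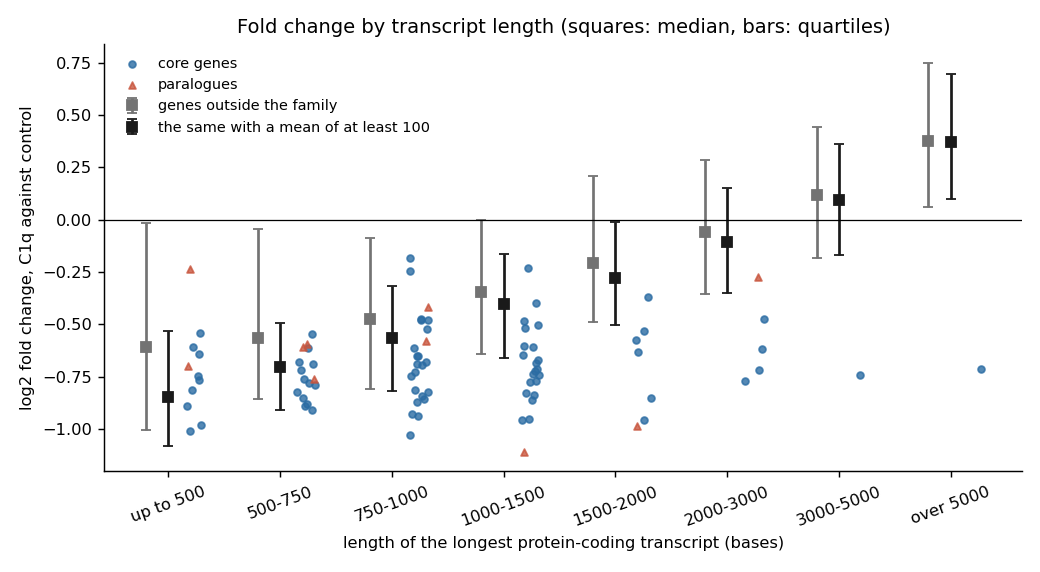
Log2 fold change of C1q against control (vertical axis) by length class of the longest protein-coding transcript in bases (horizontal axis), for core genes (blue points), paralogues (red triangles), genes outside the family (grey squares) and those among them with a mean of at least 100 (black squares). Squares give the median and bars the quartiles; the medians of the other genes rise from −0.61 to 0.38, whereas core genes lie at −0.18 or below in all classes.

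Set against all other genes within 10% of its own length, the median core gene lay 0.26 lower (a difference in log2 fold change of −0.26), with 66 core genes below and 11 above the median of their like-length genes. The like-length genes themselves had a median of −0.42. When only like-length genes with a mean of at least 100 were used, the difference was −0.15, and with the median instead of the longest transcript length it was −0.50. The 4 core genes furthest below were singled out after their values were seen. Rps15a, at 5179 bases, had a fold change of −0.71 where genes of like length had a median of 0.27. Rps20, at 3706 bases, stood at −0.74 against 0.09. Rpl21, at 1856 bases, stood at −0.96 against −0.17, and Rpl18, at 2989 bases, at −0.77 against 0.01. For these genes the longest annotated transcript need not be the one present in the cells. At the other end, Rps29 and Rps3a1 each lay 0.24 above genes of their length, Rps29 at −0.64 against −0.88 (15 genes of like length) and Rps3a1 at −0.18 against −0.42. The paralogues had a median difference of −0.11, with 6 below and 4 above. Rpl6l had no transcript in the annotation.

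With a smooth trend on length removed within each library, 23 of 77 core genes were lower and 2 higher, with a median of −0.14. In that fit 16.9% of all genes with a length were lower and 15.9% higher. Fitting the trend without the members gave 23 and 2 again, where 16.8% of all genes were lower. The core genes still called lower were led by Rps15a at −0.97, Rps20 at −0.83, Rpl21 at −0.76 and Rpl18 at −0.76, and they included Rps19, Rps24, Rplp2, Rpsa and Rpl22. The 2 called higher were Rps3a1 at 0.34 (limma adjusted p 0.0190) and Rps4x at 0.28 (0.0358), and for them the direction turned. In all, 19 of the 77 core genes turned to a positive value, and apart from these 2 they were not called. Rps27 and Rps29, singled out after their values were seen, were at 0.34 (limma adjusted p 0.0717) and 0.31 (0.0569), and Rplp1 was at 0.23 (0.146). Of the 10 paralogues with a length, Rpl36al, Rps23rg1 and Rpl7l1 were lower, Rpl32l was higher at 0.71 (limma adjusted p 0.00514), and the median was 0.06. When the trend was fitted on the median instead of the longest transcript length, an alternative added after the data had been seen, 59 core genes were lower and 0 higher, with a median of −0.44, where 18.3% of all genes were lower. How much of the fall was shared with short transcripts in general thus depended on which annotated transcript was taken, and the cause of the slope was not tested.

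Within the family the medians with and without the pyrimidine motif lay close together. Core genes with a C and at least 4 pyrimidines exactly at the annotated start had a median of −0.72 and those without it −0.73. For the run of at least 8 pyrimidines near the start the medians were −0.71 with and −0.78 without. Of the core genes printed above with the motif, Rpl38, Rplp2 and Rpl35 had log2 fold changes of −1.01, −0.85 and −0.82. Of those printed without it, Rps28 was at −0.98, whereas Rps4x and Rps3a1 were at −0.24 and −0.18 and were not called. No test was made on these groups.

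A list of 21 genes outside the family whose mRNAs are known for the TOP motif was mostly lower too. Of these, 18 were lower and 0 higher, with a median of −0.56, where 18.7% of all genes were lower. By the letters at the annotated start, 4 of the 14 with a promoter entry had a C and at least 4 pyrimidines there. Fau fell by 0.89, and Rack1, the scaffold protein on the small subunit, fell by 0.83. Tpt1, the abundant tumour protein with a strong TOP motif, had 35248, 39389 and 36619 in the controls and 21062, 23900 and 21594 with C1q, and fell by 0.74. Naca, a subunit of the complex that shields new chains at the ribosome, fell by 0.72 and Eif3k, a subunit of initiation factor 3, by 0.70. Of the elongation factor genes, Eef1b2, Eef1g and Eef1d fell by 0.68, 0.62 and 0.50, and 2 were not called. Eef1a1 had a fold change of −0.37 (adjusted p 0.111 in limma and 0.0387 in edgeR), and Eef2 had 60995, 65475 and 62572 against 67653, 73179 and 64609, a fold change of 0.12 with a limma adjusted p of 0.486. The values of Eef2 overlapped between the groups. With the length trend removed, 9 of the 21 were lower, where 16.9% of all genes were. With the replicate block as well it was 13, and the share of all genes called in that fit was not taken.

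Of 16 genes that regulate ribosomal protein mRNAs, 5 were lower (31.2%, against 18.7% of all genes) and 2 higher (12.5%, against 19.7%), with a median of 0.17. These shares lie near the background, so the genes below are given as single values. Eif4ebp1, an inhibitor of translation that mTORC1 switches off, fell by 0.89, with 2208, 2776 and 1917 in the controls and 1132, 1329 and 1229 with C1q. Myc, a transcription factor that drives ribosome biogenesis, had 751, 1030 and 825 against 462, 680 and 625 (−0.57, limma adjusted p 0.0331), and the call was lost without control 2, C1q 1 or C1q 3. Myc was also not called with the length trend removed (limma adjusted p 0.0731) or on median length (0.0585). Rheb, Rps6kb2 and Max were the other genes called lower, and Max lost its call with the replicate block (limma adjusted p 0.0575). With the length trend removed, Rheb (limma adjusted p 0.0629) and Max (0.960) were not called. Gabpa, a transcription factor of ribosomal protein promoters, rose by 0.53, from 1080, 1050 and 1156 to 1500, 1656 and 1597, and Yy1 rose by 0.25. With the length trend removed Yy1 was at −0.10 (limma adjusted p 0.237), so its direction turned, and at −0.16 on median length. Larp1 was at −0.21 (limma adjusted p 0.0569) and Mtor at 0.20 (0.165), so neither was called. Larp1 passed in edgeR with an adjusted p of 0.0387. These counts are of mRNA and say nothing of kinase activity.

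Of 13 genes listed as escorts of ribosomal proteins or as assembly factors, not all of which act on single ribosomal proteins, 7 were lower (53.8%, against 18.7% of all genes). In this list 1 gene was higher, and the median was −0.30. Bccip, the escort of Rpl23, fell by 1.00, with 1076, 1113 and 1097 against 524, 535 and 589, and the groups lay far apart. Rps19bp1, the member that is no ribosomal protein, fell by 0.97, from 393, 386 and 353 to 181, 226 and 173. Rps19 itself fell by 0.96. Nacad, which is related to the Naca complex, was the 1 gene called higher, at 1.09, with 239, 276 and 272 in the controls and 622, 521 and 535 with C1q.

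Among the 10808 genes outside the family with a mean of at least 100, the 5 whose log2 values were most like the mean of the core genes over the 6 libraries were Tkt, Snrpg, Cyth2, Npm3 and Rack1, each with a Pearson correlation of 0.998. Their fold changes were −0.49, −0.73, −0.36, −0.82 and −0.83. Like the core genes, each was highest in control 2 among the controls and in C1q 2 among the C1q libraries. They were picked by this likeness, so their fold changes are a description.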

How the data were processed

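RNA sequencing from 10 ng of input RNA gave 1 table of 6 libraries. Build mm10 and the tools HISAT2, Trimmomatic, DESeq2 and featureCounts are listed in the submitters' processing notes. Their versions, the gene annotation and the use of strand were not given in the sources used here. The deposited values are a normalised signal, that is counts scaled by library, whereas the file headers speak of featureCounts counts. Reads were recovered as whole numbers for 100% of values (within 0.01 of a read). Symbols came from RefSeq (GRCm38.p6; 16077 of 16671 Entrez IDs matched), and lengths from GENCODE vM21 (14934 genes). The planned main test on normalised values was limma-trend (limma 3.58.1, R 4.3.3) on log2(value + 1) over all 16671 genes, two-sided, with Benjamini-Hochberg adjustment. Fold changes are on that scale, which understates low genes. Alternatives on recovered reads used edgeR 4.0.16 and DESeq2 1.42.0, and other alternatives removed trends on length or GC (loess, span 0.5), thinned libraries to 5379209 reads or left out each library. Scripts were tested on simulated data. Members and gene lists were chosen with earlier results of these data known. Named genes were all paralogues, the 5 core genes at each end of the fold changes, those not called, the 3 highest and lowest per kilobase, and preset genes of each list with the 2 of lowest p. A few genes that this rule names are counted with their lists and not reported here by name. The deviations of same-numbered libraries from their group means had correlations of 0.123, 0.175 and 0.132 for numbers 1, 2 and 3, all above 0.1. Libraries of different numbers had correlations from −0.132 to 0.00485. As all deviations were taken from group means, these values are not independent of each other. The labels do not state a pairing. The main model held no block, and the numbers entered as a block only in alternatives.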

Additional observations from a re-analysis of the deposited data

How the results depend on the processing

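With 3 libraries per group, leaving out 1 library gave 65 to 73 core genes and 7 to 9 paralogues called lower, and 0 of either higher. The 65 came without C1q 1 or without C1q 3, where Rpl10a, Rpl32, Rpl4, Rplp0, Rps2, Rps26, Rps27 and Rps9 lost their call. Shares of all genes called were not taken for fits without 1 library, after thinning, or with a trend removed and the block. Whether all genes lost or gained calls alike in those fits is therefore not known. The core median then ran from −0.61 (without control 2) to −0.81 (without control 1), the difference in the share of the normalised counts on core genes from −1.45 to −2.10 percentage points, and the difference from like-length genes from −0.23 to −0.35. The regulators were least stable, with 2 to 5 lower and 1 to 4 higher, and 2 lower and 1 higher after thinning. With the replicate block (the numbers as pairs) 74 core genes were lower, where 19.7% of all genes were lower. Rps4x was added, and no other call of a core gene or paralogue changed. edgeR and DESeq2 each called 73 core genes and 9 paralogues lower. Of 45 named genes, 35 kept their side of the threshold in every setting without a length or GC trend. The share of counts has no fold change or trend to refit, so it was recomputed only for the filter, thinning and left-out libraries.

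Removing a trend on length moved the counts of core genes and paralogues furthest. Core genes lower numbered 23, or 28 with the replicate block and 23 with the trend fitted without the members; core genes higher numbered 2, 4 and 2. The core median was −0.14 in all 3, and −0.44 on median transcript length. Like-length genes by median length gave a difference of −0.50. Paralogues lower numbered 3 in all 3 fits and 4 on median length, and 1 was higher in the first 3. TOP mRNAs lower numbered 9 (without the block) and regulators higher 1 in each of the first 3. With a trend on GC content removed, regulators higher numbered 6, where 21.2% of all genes were higher, and 7 with the block as well. Escorts lower numbered 4, or 3 with the block, 5 with the trend fitted without the members and 6 on median length, and higher 2 in all 4. Of the 45 named genes, those that turned direction, with the same value with and without the block, were Rps27rt (0.28), Rps27l (0.17), Rpl22l1 (0.20), Rpl39l (0.20), Rpl32l (0.71), Rps4x (0.28), Rpl3 (0.12), Rps3a1 (0.34), Rpl39 (0.065), Rplp1 (0.23), Rps6 (0.053) and Mtor (−0.29). Fitted without the members, Rps3a1 was at 0.33, Rpl39 at 0.063 and Rps6 at 0.048, and the rest were as before. On median length only Rpl32l (0.12), Rps4x (0.0099), Rpl3 (0.042), Rps3a1 (0.068) and Mtor (−0.093) turned among the 45. Yy1, Rps27 and Rps29, given above, lie outside the 45. The cause was not tested. Depth bears most on Rpl39, with 8 to 57 reads per library.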

Other observations

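The rows with a ribosomal pseudogene symbol are left out by the rule. Of 23 such rows 8 were called lower (34.8%, against 18.7% of all genes) and 0 higher by limma, with a median of −0.84, and 15 were not called. Together they held 0.0124%, 0.0156% and 0.0152% of the normalised counts in controls 1, 2 and 3 and 0.00776%, 0.00852% and 0.00772% in C1q 1, 2 and 3. All C1q libraries lay below the controls. Reads of these rows and of the core genes they resemble may not be separable.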
